A study of Homo sapiens with 11 samples.

Results

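This section covers the co-treatment experiment, in which SH-SY5Y cells were differentiated with all-trans retinoic acid (ATRA) while exposed to hydrogen peroxide (H2O2), and were compared with cells that received ATRA alone. SH-SY5Y is an established human neuroblastoma line, subcloned from SK-N-SH, that extends neurites and takes on a neuron-like form under ATRA. In both groups ATRA was present at 10 µM for 7 days, and the treated group also had H2O2 at 10 µM over those 7 days. The experiment holds 6 of the 11 small RNA libraries of the series, 3 control and 3 H2O2, which the study describes as biological replicates of this single line. All 2576 miRNA rows of its count table were taken, of which 1554 had a count in any of the 6 libraries and 790 passed the filter on low counts. They are described here by abundance, by family, by genomic cluster and by the arm of the hairpin.

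miRNAs are short RNAs that guide Argonaute proteins to messenger RNAs and lower their translation or stability. A primary transcript is cut by Drosha to a hairpin and by Dicer to a duplex, from which the 5p or the 3p arm is loaded, so that the arms of one hairpin, and all hairpins of one polycistronic transcript, start from the same RNA. Bases 2 to 8 of the loaded strand, the seed, do most of the target recognition, and miRNAs that share a seed form a family with overlapping targets even when they are made at different loci. In neural cells, miR-124, miR-9 and miR-137 are known for their part in differentiation, let-7 and miR-125 for their rise as progenitors mature, and the miR-17-92 cluster and its paralogues for keeping cells in cycle.

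The sequences that carry the main contrasts are given first, 5′ to 3′, from RefSeq on GRCh38.p14, in lower case with the seed in capitals. The 6 members of the miR-17/miR-20/miR-93/miR-106 family, which share one seed, ran from clearly lowered to not called:
miR-17-5p: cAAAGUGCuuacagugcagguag
miR-20a-5p: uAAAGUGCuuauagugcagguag
miR-106a-5p: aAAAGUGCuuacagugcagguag
miR-106b-5p: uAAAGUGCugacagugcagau
miR-20b-5p: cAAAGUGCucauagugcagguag
miR-93-5p: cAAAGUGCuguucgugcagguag

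Opposite arms of one hairpin are shown because several were called in opposite directions or changed their ratio:
miR-106b-3p: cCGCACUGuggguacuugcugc
miR-18a-5p: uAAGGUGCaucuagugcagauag
miR-18a-3p: aCUGCCCUaagugcuccuucugg
miR-139-5p: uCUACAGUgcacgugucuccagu
miR-139-3p: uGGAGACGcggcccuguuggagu
miR-744-5p: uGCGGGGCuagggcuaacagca
miR-744-3p: cUGUUGCCacuaaccucaaccu

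The last set holds members at either end of base composition, which the change in level tracked, together with abundant miRNAs described below. The first 4 were lowered and the next 2 raised, while let-7b-5p was not called:
miR-374a-3p: cUUAUCAGauuguauuguaauu
miR-190a-3p: cUAUAUAUcaaacauauuccu
miR-19a-3p: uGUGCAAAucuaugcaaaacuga
miR-26b-5p: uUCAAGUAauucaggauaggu
miR-92b-5p: aGGGACGGgacgcggugcagug
miR-1307-3p: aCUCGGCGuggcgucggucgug
let-7b-5p: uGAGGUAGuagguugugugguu

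The control libraries held from 5787956 to 8424667 counts and the H2O2 libraries from 5343953 to 8927582, so depth overlapped between the groups. Levels below are CPM, the counts of a library brought to one common total, after TMM scaling, which aligns libraries by the bulk of their miRNAs. Over the tested miRNAs, log2 CPM correlated between replicates at 0.977 to 0.987 in controls and 0.979 to 0.989 under H2O2, and at 0.946 to 0.980 between the groups. On the first principal component, with 58.3% of the variance, control replicates lay at −12.2, −3.43 and −18.5 and H2O2 replicates at 10.6, 7.2 and 16.3, so that control replicate 2 was the control nearest to the treated group. These are bulk samples, in which fewer cells of a kind and less RNA per cell cannot be told apart. One limit of the table bears on every family below. The 154 miRNAs with 2 or more hairpins in the genome held from 0.689% to 0.789% of the counts per library, and many lay far under a relative with a single hairpin. miR-26a-5p was at a mean of 21.5 CPM and miR-26b-5p at 28294 CPM, miR-24-3p at 15.1 CPM and its cluster partner miR-23b-3p at 16130 CPM, and miR-181a-5p at 0.53 CPM. How reads with several positions were treated is not given in the sources used here, so levels of multi-copy miRNAs are uncertain and no order is read between them and single-copy relatives.

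Of the 790 tested miRNAs, 207 (26.2%) passed a false discovery rate (FDR, Benjamini-Hochberg adjusted p of edgeR's exact test) below 0.05 with |log2FC| above 0.6. These comprised 84 up-regulated miRNAs (10.6% of those tested) and 123 down-regulated ones (15.6%), where log2FC is the log2 fold change of H2O2 over control. Groups did not overlap for 329 miRNAs (41.6%). The number of calls depended on single libraries. It was 125 without control replicate 1, 113 without control replicate 3, 128 without H2O2 replicate 1 and 98 without H2O2 replicate 3, against 279 without control replicate 2. The split of directions also moved with the scaling. With the library total in place of TMM factors it was 99 up to 97 down, and with miRNAs under a mean of 10 CPM left out it was 92 up to 61 down, which moved log2FC up by a median of 0.27. The calls also ran with the GC content of the miRNA, and with the GC trend of each library removed 24 of the 370 miRNAs that could be corrected were called, as set out further on.

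The 93 tested miRNAs of at least 1000 CPM held from 94.5% to 95.9% of the counts of a library. In this class 24 were down-regulated and 4 up-regulated, with a median log2FC of −0.24, beside 15.6% down-regulated and 10.6% up-regulated among all tested. The 106 miRNAs between 100 and 1000 CPM had 19 down and 12 up, and the 210 between 10 and 100 CPM had 52 down and 30 up. Below 10 CPM there were 38 up and 28 down of 381 and a median log2FC of 0.14. The median over all 790 was −0.04. Leaving out miRNAs under 10 CPM moved log2FC up by a median of 0.27, a larger shift than any of these medians, so the splits depend on the scaling.

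**Figure D1:**
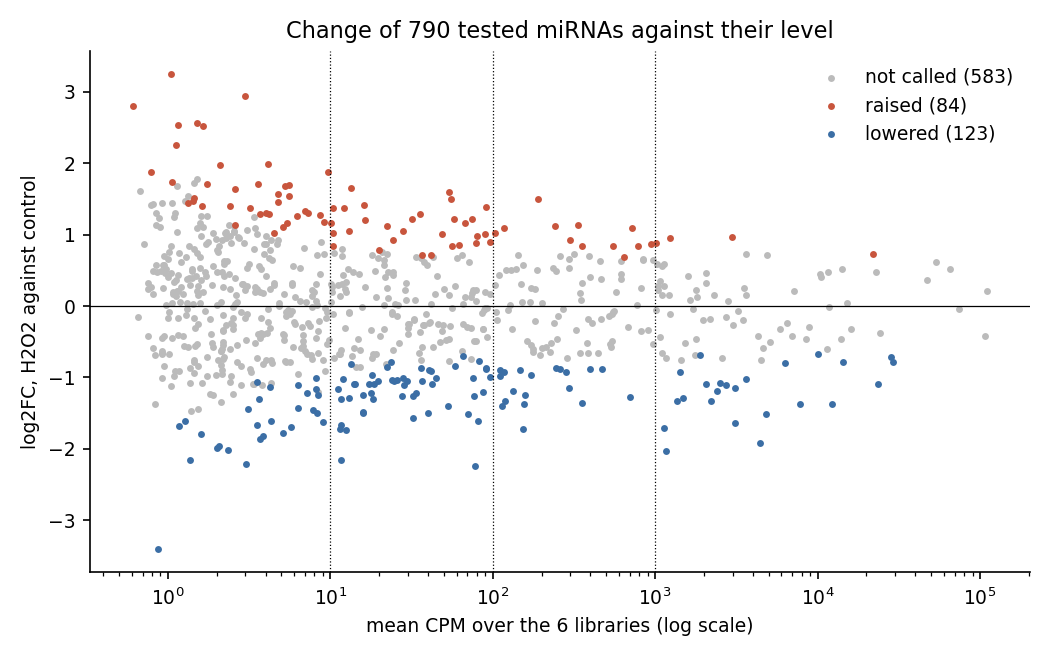
Each point is 1 of 790 tested miRNAs, with its mean CPM over the 6 libraries on a log axis and its log2FC of H2O2 over control on the y axis. Red marks the 84 up-regulated and blue the 123 down-regulated miRNAs, and dotted lines part the classes at 10, 100 and 1000 CPM. To the right of 1000 CPM, 24 blue points stand against 4 red ones, a split that depends on the scaling.

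The 10 most abundant miRNAs held from 52.3% to 58.8% of the counts of a library. Of these, 3 were called, all down-regulated. miR-137, a brain-enriched miRNA that targets chromatin and synaptic genes, was at 33217, 32284 and 31155 CPM in the controls and 17552, 13992 and 13615 CPM under H2O2. The groups lay well apart and the replicates close together, and the log2FC was −1.10 (SE 0.20, exact test FDR = 0.000589). miR-27b-3p, made from the miR-23b/miR-27b/miR-24-1 cluster in an intron of AOPEP (GRCh37 chromosome 9 from 97847490 to 97847823), had 29510, 32588 and 48431 CPM in controls and 21648, 22361 and 20195 CPM under H2O2, with a log2FC of −0.78 (SE 0.22). miR-26b-5p, from an intron of CTDSP1, had 29051, 39834 and 36601 CPM against 24223, 14962 and 25092 CPM, with a log2FC of −0.71 (SE 0.23, exact test FDR = 0.0472). Its call was lost whichever library was left out (log2FC from −0.82 to −0.41). That of miR-27b-3p was lost without any library but control replicate 2 (−0.86 to −0.45), whereas miR-137 was called in all 6 such fits.

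The remaining 7 of the top 10 were not called. The first, miR-93-5p, lay at 79352, 123899 and 103649 CPM in controls and 113829, 122891 and 119589 CPM under H2O2. For miR-10b-5p, which is encoded in the HOXD locus, the values were 114021, 129196 and 124721 CPM against 101933, 79590 and 92859 CPM, groups that did not overlap but gave an FDR of 0.195 in the exact test. miR-25-3p and let-7i-5p had log2FC of −0.04 (SE 0.20) and −0.37 (SE 0.21). On the positive side were miR-125a-5p (0.61, SE 0.24), let-7b-5p (0.52, SE 0.22) and miR-191-5p (0.36, SE 0.21). Of these, let-7b-5p and miR-125a-5p passed the threshold when either control replicate 2 or H2O2 replicate 2 was left out, with log2FC up to 0.78 and 0.97.

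By family, counts were summed over all mature miRNAs with the same seed and tested in the same way, with TMM factors of their own. Of 627 families tested, 173 (27.6%) were called, 53 up (8.45%) and 120 down (19.1%), and the groups lay apart for 42.4% of families. Directions at this level depended on the scaling more than for single miRNAs, since the median log2FC over all families was −0.14 with TMM and 0.10 with library totals, where the calls split 89 up to 69 down. Without control replicate 1, control replicate 3, H2O2 replicate 1 and H2O2 replicate 3 the calls numbered 80, 104, 105 and 77. Sums hold only miRNAs with a sequence in the table, so that miR-10b-5p, miR-30b-5p, miR-30d-5p, miR-130a-3p, miR-374a-5p, miR-34c-5p and miR-320a are in none of them.

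The family with the smallest p was miR-19, known as the main oncogenic component of the miR-17-92 cluster. Its sum was 6622, 5181 and 10487 CPM in the controls and 1575, 2387 and 1484 CPM under H2O2. The lowest control lay above the highest H2O2 library, and the family log2FC was −2.03 (SE 0.28, exact test FDR = 2.08e-07). Both members were down-regulated on the miRNA scale. miR-19a-3p fell from 6295, 4756 and 9907 CPM to 1748, 2322 and 1482 CPM, a log2FC of −1.92 (SE 0.29), and the multi-copy miR-19b-3p had a log2FC of −1.61 (SE 0.29). The other families of smallest p held few or 1 detected member. They were miR-582-5p (family log2FC −2.36, SE 0.41), miR-190a-3p (−2.29, SE 0.40), miR-570-3p (−1.86, SE 0.32) and miR-221/miR-222 (2.89, SE 0.50). The miR-221/miR-222 family was near the detection limit, at 1.31, 0.428 and 0.576 CPM in controls and 4.13, 5.12 and 7.91 CPM under H2O2. All 5 were called with each library left out in turn. After the GC correction described below, miR-19a-3p (−1.06), miR-19b-3p (−0.93) and miR-570-3p (−1.13) were called. miR-582-5p (−1.37) and miR-190a-3p (−0.91) were not.

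In the miR-17/miR-20/miR-93/miR-106 family, whose shared seed is printed above and whose members repress CDKN1A and other brakes on the cell cycle, 4 of 6 members were down-regulated and none up-regulated, beside 15.6% down-regulated among all tested. miR-106b-5p had 2250, 1059 and 2294 CPM in the controls and 381, 676 and 315 CPM under H2O2, a log2FC of −2.03 (SE 0.34, exact test FDR = 7.31e-06). miR-17-5p had 4942, 2541 and 6590 CPM against 1274, 2083 and 1169 CPM, a log2FC of −1.64 (SE 0.32). In both, control replicate 2 was the lowest control and H2O2 replicate 2 the highest H2O2 library, still without overlap. miR-106a-5p had a log2FC of −1.66 (SE 0.32) at a mean of 11.6 CPM. miR-20a-5p, the most abundant of the lowered members, had 21169, 19710 and 13701 CPM against 10489, 12316 and 8919 CPM, a log2FC of −0.78 (SE 0.23), and lost its call without control replicate 1, H2O2 replicate 1 or H2O2 replicate 3 (−0.87 to −0.55 over all 6 fits). miR-20b-5p (−0.20, SE 0.25) and miR-93-5p (0.22, SE 0.19) were not called. The family sum, most of it miR-93-5p, was not called, at 135619 ± 23403 CPM in controls and 127519 ± 14252 CPM under H2O2 (SD, n = 3 each), with a log2FC of −0.09 (SE 0.17, FDR = 0.842, exact test).

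In the miR-130/miR-301/miR-454 family, which acts on TGF-beta signalling, 4 of 5 members were down-regulated, beside 15.6% among all tested. miR-301a-3p had 2672, 2499 and 4317 CPM in the controls and 1333, 1512 and 922 CPM under H2O2, a log2FC of −1.33 (SE 0.28). miR-301b (−1.36, SE 0.31), miR-130a-3p (−1.08, SE 0.29) and miR-454-3p (−0.79, SE 0.23) moved the same way, and miR-130b-3p was not called (−0.46, SE 0.25). miR-454-3p kept its call only without control replicate 2, with −0.85 to −0.53 over the 6 fits, and miR-130a-3p lost it without control replicate 3, H2O2 replicate 1 or H2O2 replicate 3 (−1.27 to −0.69). After the GC correction described below, miR-301a-3p (−0.66), miR-301b (−0.67) and miR-454-3p (0.01) were not called, and miR-130a-3p was not in that fit. The family sum, which lacks miR-130a-3p, was 14438 ± 1553 CPM in controls and 7238 ± 144 CPM under H2O2 (SD, n = 3 each). Its log2FC was −1.0 (SE 0.20, exact test FDR = 0.00164), and the call was lost without H2O2 replicate 3 (range −1.01 to −0.85).

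Among the other families, both members of miR-18 (miR-18a-5p −1.28, SE 0.27, and miR-18b-5p −1.30, SE 0.32) and both of miR-374 (miR-374a-5p −1.37, SE 0.22, and miR-374b-5p −0.68, SE 0.23) were down-regulated. In the miR-15/miR-16/miR-195/miR-424/miR-497 family, which targets cyclins and BCL2, 2 of 6 were down-regulated, miR-15a-5p (−1.19, SE 0.24) and miR-424-5p (−1.51, SE 0.32), while miR-15b-5p was at −0.29 (SE 0.21) and not called. The miR-30 family had 2 of 5 members down-regulated. miR-30b-5p had 6832, 3574 and 10937 CPM in controls and 2229, 3192 and 2078 CPM under H2O2 (−1.51, SE 0.33), and the multi-copy miR-30c-5p, at 8.32 CPM, had −1.5 (SE 0.38), but miR-30d-5p was at 0.52 (SE 0.23) and not called. In the miR-29 family, known for silencing collagen genes and pro-apoptotic BH3-only genes in neurons, miR-29c-3p (−1.14, SE 0.31) and miR-29b-3p (−1.78, SE 0.43) were down-regulated and miR-29a-3p was at −0.19 (SE 0.26). miR-148a-3p (−1.10, SE 0.26) was called and miR-148b-3p (−0.24, SE 0.23) and miR-152-3p (−0.42, SE 0.23) were not. miR-21-5p, an abundant miRNA known from tumours, had 12689, 12730 and 11966 CPM in controls and 8145, 7642 and 7635 CPM under H2O2 (−0.67, SE 0.21), and miR-590-5p, of the same seed family, had a log2FC of −1.34 (SE 0.32). Lowered single members included miR-338-3p (−1.29, SE 0.27), miR-340-5p (−1.10, SE 0.26), miR-32-5p (−1.14, SE 0.28) and miR-101-3p (−0.96, SE 0.29), of which the last targets EZH2. The share down-regulated among all tested miRNAs was 15.6%. Of the calls in this paragraph that could be corrected for GC, as described below, none was kept. Calls that were lost when 1 library was left out were those of miR-374b-5p and miR-21-5p (without any but control replicate 2, −0.75 to −0.54 and −0.66 to −0.57), miR-340-5p (without H2O2 replicate 3), miR-32-5p (without control replicate 1), miR-101-3p (without control replicate 3, H2O2 replicate 1 or H2O2 replicate 3, −1.06 to −0.58), miR-29c-3p (without control replicate 3 or H2O2 replicate 3, −1.4 to −0.74), miR-30c-5p (without control replicate 3, −1.82 to −1.11) and miR-148a-3p (without H2O2 replicate 3, −1.22 to −0.76).

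let-7, the listed family with most members, had none of its 9 called. The members spread to both sides, from let-7b-5p (0.52, SE 0.22), let-7e-5p (0.48, SE 0.24) and let-7a-5p (0.35, SE 0.32) to let-7g-5p (−0.46, SE 0.26), let-7f-5p (−0.44, SE 0.29) and miR-98-5p (−0.73, SE 0.28). Their sum was 142479 ± 27842 CPM in controls and 148002 ± 27003 CPM under H2O2 (SD, n = 3 each), a log2FC of 0.05 (SE 0.19). Up-regulated members of the families listed were few. miR-99b-5p had 14010, 19933 and 15588 CPM in controls and 31464, 21033 and 29853 CPM under H2O2 (0.73, SE 0.23), with miR-99a-5p (−0.27, SE 0.23) and miR-100-5p not called. miR-103a-3p (0.89, SE 0.30), with miR-107 at 0.32 (SE 0.27), and miR-34c-5p (1.30, SE 0.34), transcribed under p53, were the others next to miR-320c (1.70, SE 0.44) and miR-221-3p. The calls of miR-99b-5p (0.67 to 1.00) and miR-103a-3p (0.80 to 1.30) were lost without control replicate 1, H2O2 replicate 1 or H2O2 replicate 3, and that of miR-103a-3p also without control replicate 3. Over the 52 families with 2 or more tested members, 28 had no call, 11 had 2 or more calls, and in 10 of these 11 all calls were in one direction. All calls together split 84 up to 123 down. How often calls of unrelated miRNAs, or of miRNAs of like GC content, agree in direction was not counted.

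**Figure D2:**
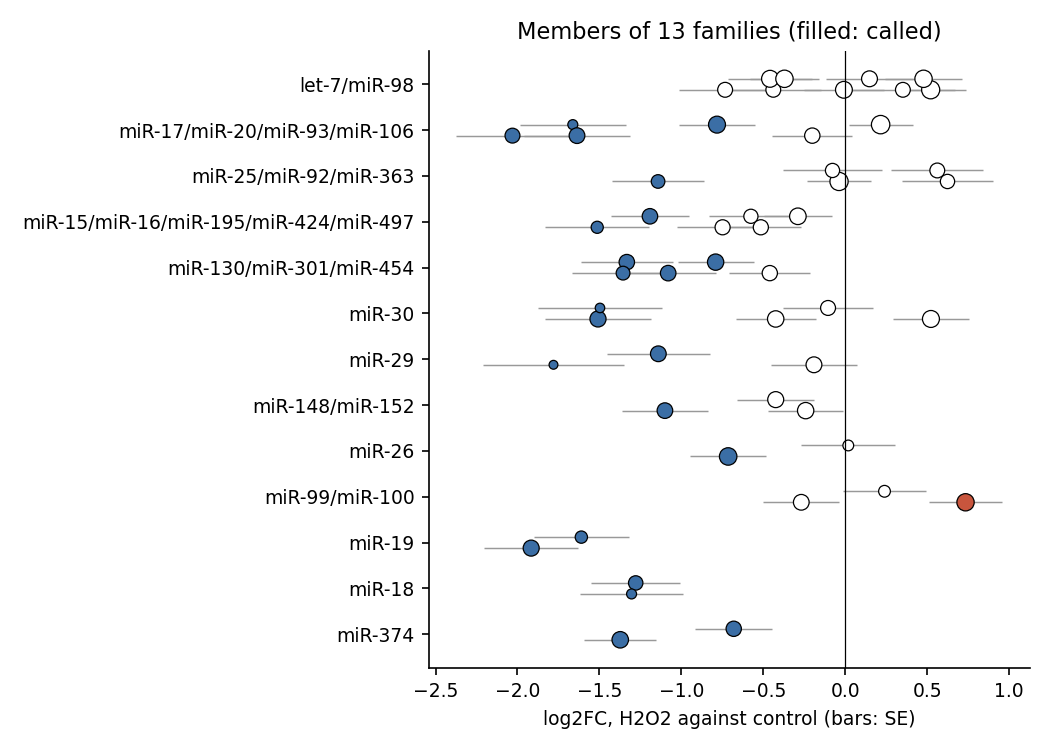
Each row is a family and each circle a member, placed at its log2FC of H2O2 over control with its SE. Blue circles are down-regulated, the red one up-regulated, open ones not called, and larger circles more abundant. The 6 members of miR-17/miR-20/miR-93/miR-106 run from −2.03 to 0.22, and all 9 let-7 members are open.

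By genomic cluster, counts were summed over hairpins at most 10 kb apart on one strand, which may share a primary transcript. A mature miRNA with hairpins in several such units was left out of the sums and of the member counts. These sums also had TMM factors of their own, so their CPM and log2FC are not on the scale of single miRNAs. Of 451 such units, 113 (25.1%) were called, 43 up (9.53%) and 70 down (15.5%), and the groups lay apart for 40.6% of units. With library totals in place of TMM the split was 71 up to 46 down and the median log2FC 0.16 rather than −0.03. Without control replicate 3, H2O2 replicate 1 and H2O2 replicate 3 there were 71, 75 and 58 calls. Among 170 units with 2 or more tested members, 84 had no call, 33 had 2 or more, and in 27 of these 33 all calls went one way. Here too, agreement among unrelated miRNAs or those of like GC content was not counted.

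The unit with the smallest p was miR-374a/miR-545, in an intron of FTX, the long non-coding RNA upstream of XIST (GRCh37 chromosome X from 73506939 to 73507192). On the scale of the unit sums, it had 13542, 11931 and 14854 CPM in controls and 4787, 4438 and 4925 CPM under H2O2. The groups lay far apart, and the log2FC was −1.51 (SE 0.18, exact test FDR = 3.12e-07). On the miRNA scale, miR-374a-5p (11809, 10442 and 11546 CPM against 4802, 3733 and 4512 CPM), miR-374a-3p (−1.71, SE 0.32) and miR-545-5p (−1.48, SE 0.31) were down-regulated, and miR-545-3p, at 2.69 CPM, was not called (−0.78, SE 0.52). In the neighbouring miR-374b/miR-421 unit, also within FTX, miR-374b-3p (−0.86, SE 0.26) was called along with miR-374b-5p, and miR-421 was not (−0.34, SE 0.25), and miR-374b-3p lost its call without control replicate 3, H2O2 replicate 1 or H2O2 replicate 3 (−0.90 to −0.64). MIR590, in an intron of EIF4H, had 2237, 1854 and 2501 CPM against 879, 619 and 934 CPM (−1.44, SE 0.24), and both of its arms were down-regulated. MIR2682/MIR137 (−1.18, SE 0.16), MIR570 (−1.82, SE 0.29) and miR-221/miR-222 (2.88, SE 0.50) completed the 5 units of smallest p, all of them called in every fit with 1 library left out. After the GC correction described below, miR-374a-3p (−0.40), miR-545-5p (−0.27), miR-590-5p (−0.56), miR-590-3p (0.00062) and miR-137 (−0.29) were not called. miR-570-3p (−1.13) was called, and miR-374a-5p and miR-221-3p were not in that fit.

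The miR-17-92 cluster, transcribed from MIR17HG (GRCh37 chromosome 13 from 91999940 to 92049846) under MYC and E2F, was down-regulated as a unit. Its sum was 32453 ± 3125 CPM in controls and 14443 ± 3722 CPM under H2O2 (SD, n = 3 each), a log2FC of −1.17 (SE 0.20, exact test FDR = 0.000218). Of its 10 tested members, 6 were down-regulated, namely miR-17-5p, miR-18a-5p, miR-19a-3p, miR-19b-1-5p, miR-20a-5p and miR-20a-3p. The sum and these members lack miR-19b-3p, which was down-regulated, and miR-92a-3p, at a mean of 1099 CPM, which was not called. Both have hairpins in other units too. miR-18a-5p had 1153, 816 and 991 CPM in controls and 389, 515 and 316 CPM under H2O2. The other arm of its hairpin, miR-18a-3p, ranged from 46.9 CPM in control replicate 3 to 153 CPM in H2O2 replicate 1, with overlapping groups, and was not called (0.51, SE 0.33). miR-19b-1-5p (−0.96, SE 0.29) and miR-20a-3p (−0.90, SE 0.27) lost their calls without control replicate 1, H2O2 replicate 1 or H2O2 replicate 3.

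Its paralogue miR-106b-25, within MCM7 (GRCh37 chromosome 7 from 99691183 to 99691697, with MIR106B in an intron), was not called as a whole. The sum was 188274 ± 32911 CPM in controls and 192619 ± 17430 CPM under H2O2 (SD, n = 3 each), a log2FC of 0.03 (SE 0.15, exact test FDR = 0.947). Within it 3 of 6 members were called, in both directions. miR-106b-5p was down-regulated as described above, while the opposite arm miR-106b-3p had 2144, 2861 and 1002 CPM in controls and 4295, 3430 and 3997 CPM under H2O2 (0.96, SE 0.31). miR-25-5p had 201, 284 and 144 CPM against 476, 404 and 499 CPM (1.13, SE 0.29). The main arms of the other hairpins, miR-93-5p and miR-25-3p, were not called. miR-106b-3p lost its call without control replicate 3, H2O2 replicate 1 or H2O2 replicate 3 (0.74 to 1.32), and miR-106b-5p and miR-25-5p kept theirs in all 6 fits. After the GC correction described below, miR-106b-5p was called (−1.57), but miR-106b-3p (0.51) and miR-25-5p (0.90) were not. In miR-106a-363 on chromosome X, the other paralogue, miR-106a-5p, miR-106a-3p (−1.09, SE 0.28) and miR-18b-5p were down-regulated, and the more abundant miR-20b-5p and miR-363-3p (−0.08, SE 0.30) were not called. Without control replicate 1, miR-106a-3p lost its call.

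**Figure D3:**
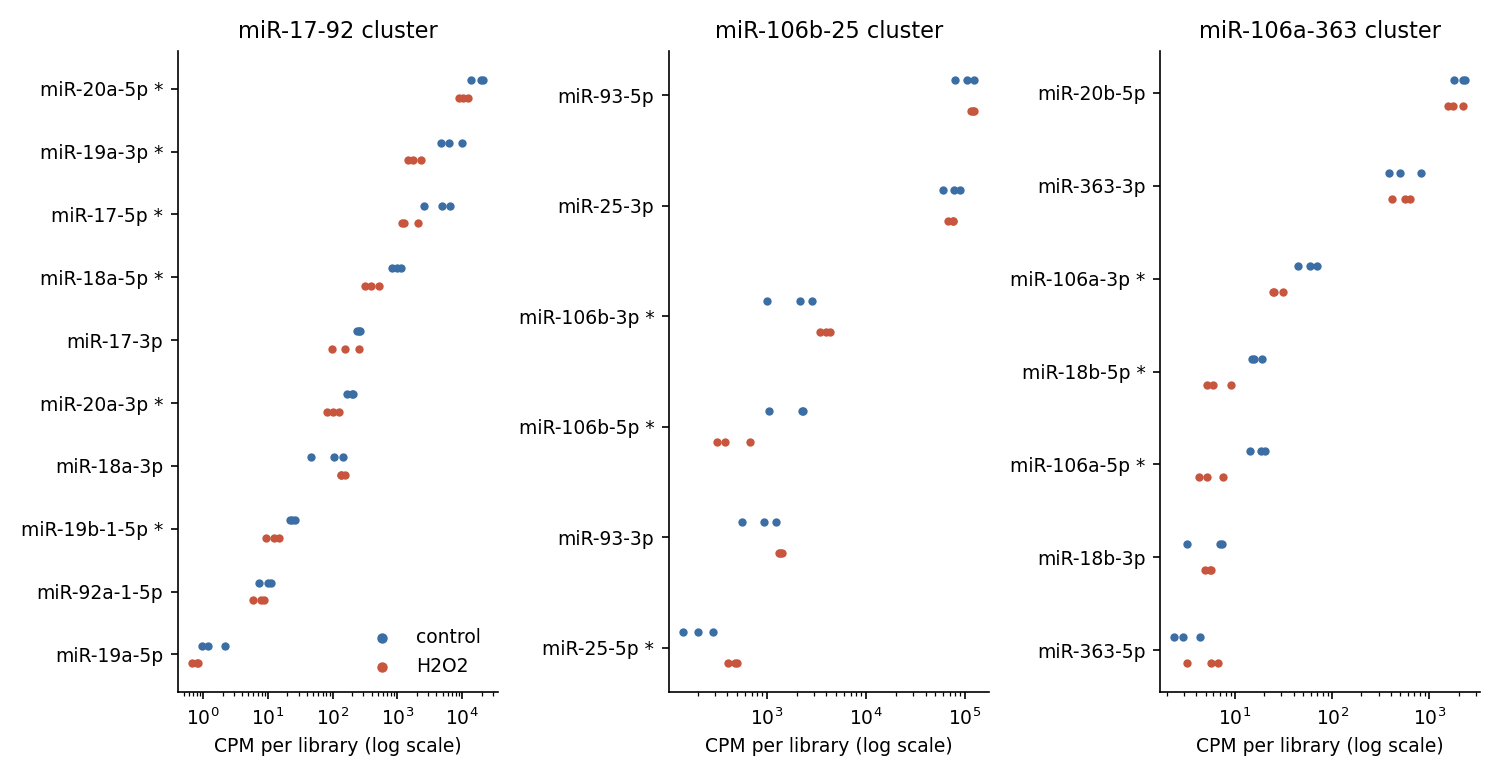
Each panel is one cluster and each row a mature miRNA, ordered by mean level, with its CPM in the 3 control (blue) and 3 H2O2 (red) libraries on a log axis. An asterisk marks a call. miRNAs with hairpins in several units, such as miR-92a-3p and miR-19b-3p, are not shown. In miR-17-92, 6 of 10 rows carry one and all lie lower under H2O2, while in miR-106b-25 the asterisks of miR-106b-3p and miR-25-5p lie higher and that of miR-106b-5p lower.

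Of the other clusters, the imprinted miR-379 to miR-410 cluster on chromosome 14 had 9 of 36 tested members down-regulated and 1, miR-485-3p, up-regulated (1.02, SE 0.35). Among all tested miRNAs 15.6% were down-regulated and 10.6% up-regulated. The lowered ones were low in level, from miR-889-3p (−0.89, SE 0.26) at 40.7 CPM to miR-495-3p (−1.68, SE 0.62) at 1.17 CPM, and the sum of the cluster, 940 ± 92.3 CPM in controls and 777 ± 52.6 CPM under H2O2 (SD, n = 3 each), was not called. The calls of miR-889-3p and miR-485-3p were lost without control replicate 1, control replicate 3, H2O2 replicate 1 or H2O2 replicate 3, that of miR-889-3p also without H2O2 replicate 2, and miR-495-3p was called in none of the fits with 1 library left out in which it was tested. After the GC correction described below, no member of this cluster was called. The 17 members in that fit had a median log2FC of 0.10, with miR-889-3p at −0.02 and miR-485-3p at 0.87. In miR-424/miR-503/miR-542/miR-450 on the X chromosome, miR-424-5p, miR-450b-5p (−1.0, SE 0.28) and miR-542-3p (−1.72, SE 0.32) were down-regulated of 8 tested, with 523 ± 121 CPM for the sum in controls and 206 ± 25 CPM under H2O2 (SD, n = 3 each). miR-450b-5p lost its call without control replicate 1 or H2O2 replicate 2 (−1.12 to −0.73). The miR-532 to miR-502 cluster in CLCN5 held calls in both directions. miR-501-3p had 27.8, 38.5 and 20.9 CPM in controls and 87.4, 73.0 and 86.2 CPM under H2O2 (1.5, SE 0.29), and miR-532-3p was also up-regulated (0.90, SE 0.27), but miR-362-3p was down-regulated (−1.17, SE 0.39, with overlapping groups). miR-532-3p lost its call without H2O2 replicate 1 or H2O2 replicate 3, and miR-362-3p without those or control replicate 1. The miR-34b/c unit rose from 6.33 ± 1.69 CPM to 16.2 ± 2.36 CPM (SD, n = 3 each; log2FC 1.35, SE 0.29), with miR-34c-5p and miR-34b-3p (1.97, SE 0.50) called. miR-99b/let-7e/miR-125a, whose 4 most abundant members all had a positive log2FC, reached an FDR of 0.142 in the exact test on its sum (0.51, SE 0.19).

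The ratio of the 5p to the 3p arm of a hairpin is formed within a library and so does not depend on the scaling. It can still carry a GC trend of a library, described below, where the arms differ in GC content. It was tested with limma for 180 hairpin names with a mean of at least 10 counts in each arm, and 10 (5.56%) passed an FDR of 0.05. The miR-106b ratio, on the log2 scale, was 0.07, −1.43 and 1.20 in controls and −3.49, −2.34 and −3.67 under H2O2. The controls lay on both sides of equal counts and the 3p arm dominated in all 3 H2O2 libraries, a change of −3.11 (SE 0.59, limma FDR = 0.0215). miR-139, in an intron of PDE2A (GRCh37 chromosome 11 from 72326107 to 72326174), went from 4.65, 3.21 and 4.69 to 1.63, 2.50 and 1.18, a change of −2.41 (SE 0.47). miR-139-3p had 23.2, 29.9 and 26.7 CPM in controls and 74.1, 67.7 and 100.1 CPM under H2O2 (1.60, SE 0.28), while miR-139-5p was down-regulated with overlapping groups (584, 278 and 690 CPM against 229, 383 and 228 CPM, −0.89, SE 0.33). The call of the 5p arm was lost without control replicates 1 or 3 or H2O2 replicates 1 or 3 (−1.18 to −0.57), and that of the 3p arm was kept in all 6 fits. After the GC correction described below, the 3p arm was called (1.07) and the 5p arm was not (−1.03).

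The ratio also fell for miR-194 (−2.45, SE 0.49), where the 3p arm had only 3 to 14 counts per control library, for miR-18a (−1.94, SE 0.46), miR-424 (−1.59, SE 0.38), miR-1307 (−1.44, SE 0.32) and miR-873 (−1.34, SE 0.34). It rose for miR-491 (2.23, SE 0.56), miR-744 (1.85, SE 0.44) and miR-30d (1.4, SE 0.34). miR-194 has hairpins on chromosomes 1 and 11, so its ratio is not that of a single hairpin and is uncertain. In miR-744, miR-744-5p had 580, 605 and 503 CPM in controls and 923, 1064 and 1024 CPM under H2O2 (0.84, SE 0.25), and miR-744-3p had a log2FC of −1.04 (SE 0.35), with overlapping groups. In miR-491, from an intron of FOCAD, the 5p arm was at 1.01 (SE 0.30) and the 3p arm at −1.25 (SE 0.35), both called. miR-744-5p lost its call without H2O2 replicate 3, miR-491-3p without control replicate 3 and miR-744-3p without control replicates 1 or 3 or H2O2 replicates 1 or 3 (−1.30 to −0.62). Among these 10, miR-1307 was the one with the 5p arm ahead in all controls and the 3p arm ahead in all H2O2 libraries. Its log2 ratios were 0.50, 0.61 and 0.97 in controls and −0.48, −0.63 and −1.12 under H2O2. Without control replicate 1 or control replicate 3 no hairpin passed in limma, with 32 and 34 at an unadjusted p under 0.05 where all 6 libraries gave 51. There were 4, 2 and 3 calls without H2O2 replicates 1, 2 and 3 and 37 without control replicate 2. For all 10 ratios the groups lay apart, but they were chosen by their FDR, and the share among all 180 was not counted.

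**Figure D4:**
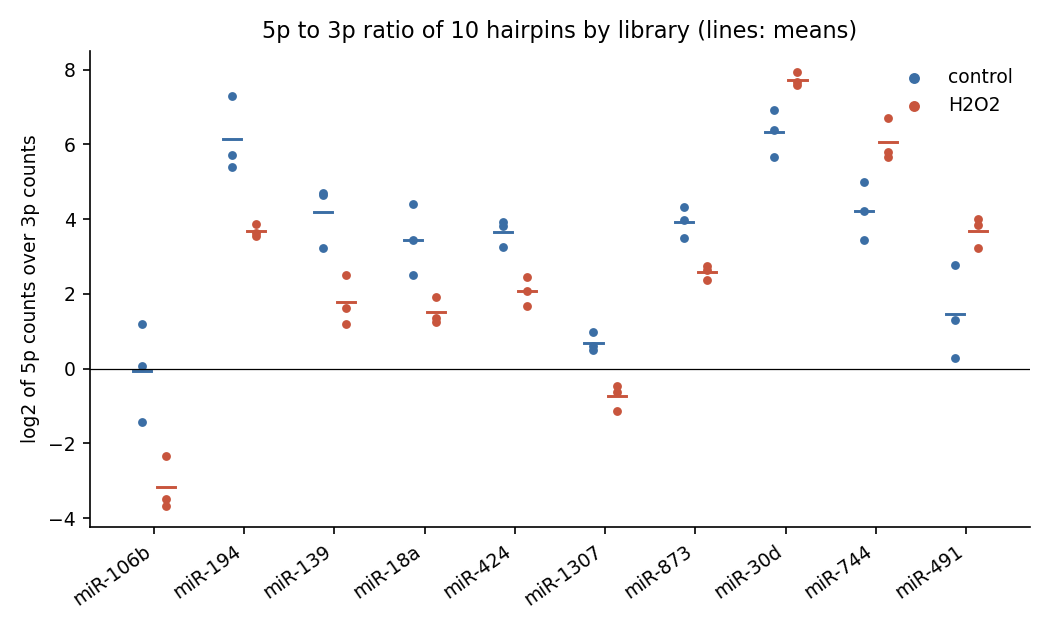
The y axis is the log2 ratio of 5p to 3p counts, so that 0 means equal counts, for the 10 hairpins that passed. Blue points are the 3 control and red points the 3 H2O2 libraries, with a line at each mean. Red lies below blue in 7 hairpins and above it in miR-30d, miR-744 and miR-491.

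Among calls without overlap, the largest at each level were as follows. At 1000 CPM or more, the rises were miR-106b-3p, miR-339-5p (770, 1034 and 722 CPM in controls against 1679, 1779 and 1412 CPM, log2FC 0.95, SE 0.25), miR-1307-3p (0.89, SE 0.26) and miR-99b-5p, which were all 4 up-regulated miRNAs of this class. The falls were miR-106b-5p, miR-19a-3p, miR-374a-3p, miR-17-5p and miR-30b-5p, of which 3 come from miR-17-92 or its paralogue. Between 100 and 1000 CPM, miR-92b-5p rose from 103, 116 and 79.1 CPM to 283, 254 and 302 CPM (1.5, SE 0.27, exact test FDR = 1.58e-05), and miR-25-5p, miR-769-3p (1.12, SE 0.28), miR-760 (1.09, SE 0.27) and miR-423-3p (1.09, SE 0.28) followed. The falls were miR-542-3p, miR-561-5p (−1.4, SE 0.31), let-7f-2-3p (−1.37, SE 0.36), miR-301b and miR-590-5p (−1.34, SE 0.32). Between 10 and 100 CPM the rises were miR-885-3p (1.65, SE 0.34), miR-139-3p, miR-501-3p, miR-6747-3p (1.41, SE 0.36) and miR-3615 (1.38, SE 0.32), and the falls miR-582-5p (−2.23, SE 0.41), miR-190a-3p (−2.16, SE 0.39), miR-33a-3p (−1.73, SE 0.41), miR-570-3p (−1.72, SE 0.32) and miR-106a-5p. Without control replicate 3, let-7f-2-3p (−1.67 to −0.77 over the 6 fits) and miR-33a-3p (−2.08 to −1.20) were no longer called.

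The change in level tracked the base composition of the mature miRNA. Down-regulated miRNAs had a median GC content of 37.5% and up-regulated ones of 63.6%, and the middle of the range over all 708 tested miRNAs with a sequence ran from 40.9% to 59.1% (quartiles). Under 30% GC, 17 of 20 miRNAs were down-regulated and none up-regulated, and from 30% to 40% the counts were 47 and 0 of 115, with a median log2FC of −0.78. From 60% to 70% GC, 34 of 112 were up-regulated and 1 down-regulated, with a median of 0.73. The trend did not go on above that, since at 70% GC or more 11 of 36 were up-regulated and 2 down-regulated, with a median of 0.35. Across miRNAs, log2FC and GC content correlated with Pearson's r = 0.56 (n = 708, all from the same 6 libraries). The trend was also read in single libraries. When each was set against the mean of all 6, the smoothed log2 level at 60% GC minus that at 40% was −0.48, −0.32 and −0.71 for control replicates 1 to 3. For H2O2 replicates 1 to 3 it was 0.41, 0.54 and 0.56. The sign was negative in every control and positive in every H2O2 library, and control replicate 2 was again nearest to the H2O2 libraries. Against a shared mean, opposite signs of the group averages follow from the trend in log2FC, so only the agreement of replicates is further information. H2O2 treatment and a library-wide GC trend cannot be told apart in this design.

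Removing each library's GC trend left fewer calls. In the 370 miRNAs with a sequence and a mean of at least 10 CPM, a quasi-likelihood test called 132 (35.7%) before the correction and 24 (6.49%) after it. Of the 123 miRNAs of that set called by the exact test, 110 kept their sign and 18 were also called after it, and their median |log2FC| went from 1.02 to 0.52. After the correction 13 were lowered, in order of size miR-2277-3p (−1.82), miR-106b-5p (−1.57), miR-17-5p (−1.55), let-7g-3p (−1.54), let-7i-3p (−1.30), miR-652-3p (−1.27), miR-1307-5p (−1.27), miR-106a-5p (−1.25), miR-570-3p (−1.13), miR-214-5p (−1.07), miR-19a-3p (−1.06), miR-675-3p (−1.0) and miR-19b-3p (−0.93). Among them 5 belong to the miR-17 and miR-19 families. The 11 raised were miR-5187-5p (1.39), miR-501-3p (1.34), miR-885-3p (1.33), let-7e-5p (1.08), miR-139-3p (1.07), miR-138-2-3p (1.04), miR-103a-3p (1.02), miR-183-5p (0.92), miR-664a-5p (0.88), miR-488-5p (0.85) and let-7b-5p (0.82). All 24 had the same quasi-likelihood FDR of 0.0442. The exact test had not called 6 of them, miR-1307-5p, miR-675-3p, miR-183-5p, miR-664a-5p, let-7e-5p and let-7b-5p, of which both let-7 members were already called by the quasi-likelihood test in this set before the correction (0.73 and 0.76). By contrast miR-137 (−0.29), miR-26b-5p (0.13), miR-20a-5p (−0.13), miR-21-5p (0.08), miR-374a-3p (−0.40), miR-454-3p (0.01), miR-99b-5p (0.25), miR-1307-3p (0.12), miR-106b-3p (0.51) and miR-25-5p (0.90) were not called. The sum tests and the arm ratios were not corrected for GC, and miR-30b-5p, miR-374a-5p and miR-130a-3p had no sequence in the table and stayed outside this fit.

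**Figure D5:**
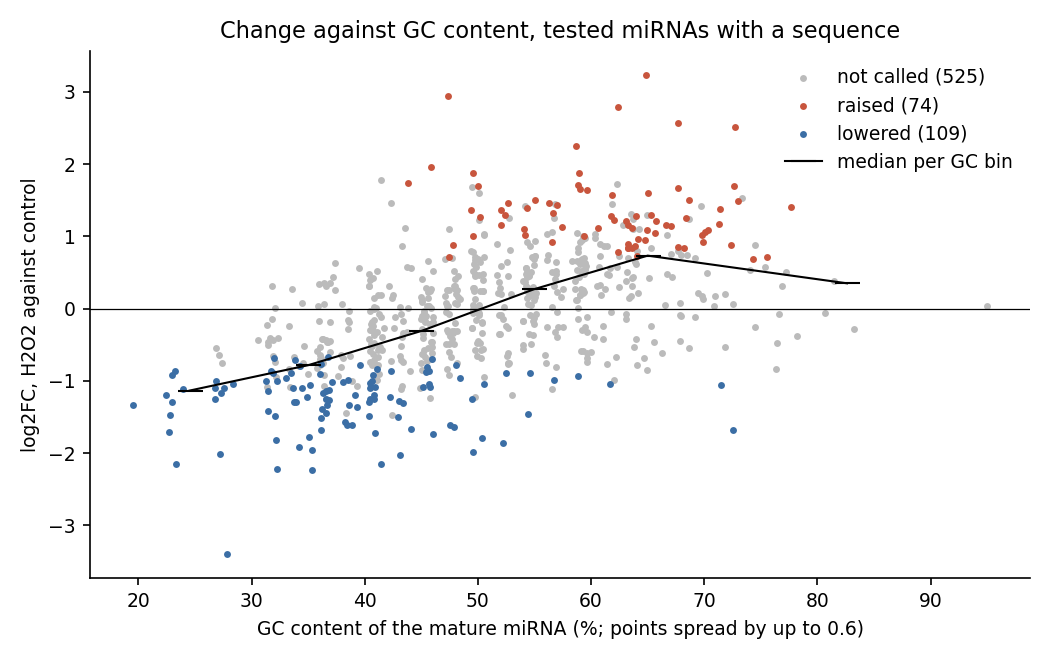
Each point is 1 of 708 tested miRNAs with a sequence, with the GC content of its mature sequence in percent on the x axis and its log2FC of H2O2 over control on the y axis. Red and blue mark the 74 up-regulated and 109 down-regulated ones, and the black line joins the medians of 6 GC bins. The median runs from −1.13 under 30% GC to 0.73 between 60% and 70% and is 0.35 at 70% or more, and no red point lies under 40% GC.

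Markers of cell identity were read from fixed lists. Of 13 neuronal miRNAs, 11 were tested, 3 were down-regulated and none up-regulated, beside 15.6% down-regulated and 10.6% up-regulated among all tested. Their summed level, most of it miR-137, ranged from 36164 to 38800 CPM in controls and from 18461 to 22942 CPM under H2O2. Next to miR-137, miR-218-5p, enriched in motor neurons (135, 90.1 and 161 CPM against 75.7, 53.2 and 65.8 CPM, log2FC −0.99, SE 0.29), and the multi-copy miR-9-5p, under 7 CPM in each library (−1.06, SE 0.40), were called. miR-128-3p (−0.04, SE 0.24), miR-132-3p (−0.15, SE 0.25), miR-138-5p (0.32, SE 0.32) and miR-7-5p (−0.66, SE 0.28) were not. miR-124-3p, the defining neuronal miRNA, was at most at 0.317 CPM in any library, and as it has several hairpins its level is uncertain too. Without control replicates 1 or 3 or H2O2 replicates 2 or 3 the call of miR-218-5p was lost (−1.19 to −0.72), and miR-9-5p kept its call only without control replicate 2. After the GC correction miR-137 (−0.29) and miR-218-5p (−0.28) were not called, and miR-9-5p, under 10 CPM, was not in that fit.

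The erythroid miRNAs summed to at most 9.95 CPM, with miR-486-5p the 1 call of 3 tested, up-regulated. The white blood cell miRNAs summed to at most 21.7 CPM, with miR-142-5p down-regulated (−1.30, SE 0.42), a call lost without control replicate 3 or H2O2 replicates 1 or 2. None of 7 epithelial or 2 tested muscle miRNAs was called, and the liver miRNA miR-122-5p had 243, 152 and 297 CPM in controls and 343, 208 and 540 CPM under H2O2 and was not called. Among fibroblast and smooth muscle miRNAs, miR-199a-5p was the 1 call of 5, down-regulated at under 7 CPM (−1.86, SE 0.46, lost without H2O2 replicate 3), while the list summed to 15931 to 17064 CPM in controls and 10129 to 13406 CPM under H2O2, mostly miR-143-3p (−0.60, SE 0.21, not called). Annotations that overlap small nucleolar RNAs, a sign of other RNA in a library, had 1 call of 7, miR-664a-3p (−1.20, SE 0.36), which lost its call without control replicates 1 or 3 or H2O2 replicates 2 or 3. Their summed level ran from 990.5 to 1421 CPM in controls and from 876 to 2641 CPM under H2O2, highest in H2O2 replicate 2. The part of any of these in the calls above was not tested.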

How the data were processed

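The authors differentiated SH-SY5Y cells with ATRA with or without H2O2, made small RNA libraries with the QIAseq miRNA kit, sequenced them on a NextSeq 500 and deposited raw counts per mature miRNA, made with cutadapt 2.10, Bowtie2 2.4.1 on hg19 and HTSeq 0.7.2. Use of molecular identifiers and the miRBase release are not given in the sources used here. The authors' comparison tables hold log2 fold changes, log CPM, p-values and FDR and were not used.

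From the counts, miRNAs were kept where at least 3 libraries passed 0.936 CPM, which is what 5 counts are worth at the lowest depth, scaled by TMM and tested with edgeR 4.0.16's exact test (FDR below 0.05, |log2FC| above 0.6). SEs come from edgeR's quasi-likelihood fit. Sums over seed families and over hairpins within 10 kb were tested likewise, and arm ratios (pseudocount 0.5, at least 10 mean counts per arm) with limma 3.58.1. GC trends were lowess fits with a span of 0.5. Positions are GRCh37. RefSeq sequences matched 2270 of 2576 miRNAs, holding 82.4% of counts. The pipeline was tested on simulated data. The exact test follows the study's methods. Alternatives included DESeq2 1.42.0, other scalings and filters, leaving out each library and a replicate block.

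Members, lists and tests were chosen with earlier results of these data known. Named were the 10 most abundant miRNAs, the 5 largest rises and falls without overlap in each class of at least 10 CPM, the 4 most abundant and any called members of listed families and clusters described, the 5 families, clusters and arm ratios of smallest p, and marker members. The other arm ratios that passed, the arms of those hairpins, and all calls left after the GC correction were named after their values were seen.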

Additional observations from a re-analysis of the deposited data

How the results depend on the processing

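Leaving out 1 library at a time gave 98 to 279 called miRNAs, 77 to 215 families, 58 to 140 clusters and 0 to 37 arm ratios. Same-numbered libraries did not deviate together (correlations 0.04, −0.16 and −0.16), so the numbers are not read as pairs. With the replicate block, 111 miRNAs, 78 families, 24 clusters and 0 arm ratios (limma, 41 at an unadjusted p under 0.05) were called. Among the 370 miRNAs with a GC value the quasi-likelihood test called 132, and 24 with the GC correction. Block and GC correction together left 0 (edgeR quasi-likelihood test, 82 at an unadjusted p under 0.05). A pseudocount of 5 gave 22 arm ratios. Other tests, scalings and filters on the same data kept each count within 1.5 times, with 181 to 216 miRNAs over the quasi-likelihood and DESeq2 tests and the library-size, DESeq2 size factor and upper quartile scalings. Of the named results that were called, library-size scaling ended 26 calls, DESeq2 size factors 7 and the replicate block 58, with no change of sign. The fit with the GC correction, which also changes the test and the set of miRNAs, ended 48 and turned the sign of 9 more. The same fit without the correction ended 14 and turned no sign. With the correction and the block 61 calls ended and 6 signs turned. Adding textbook members without a sequence to the family sums, an alternative chosen after seeing the data, gave 165 families, 66 up and 99 down.

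The sign turned under the GC correction, alone and with the block, for miR-21-5p (0.084 and 0.088), miR-26b-5p (0.13 and 0.13), miR-369-3p (0.32 and 0.35), miR-374b-3p (0.069 and 0.076), miR-374b-5p (0.24 and 0.24) and miR-450b-5p (0.035 and 0.053), and under the correction alone for miR-340-5p (0.031), miR-454-3p (0.011) and miR-590-3p (0.00062). The cause was not tested. With 3 libraries a group, the median SE was 0.50 below 10 CPM against 0.25 at 1000 CPM or more, so small differences were not detectable among rare miRNAs.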
